A study of Caenorhabditis elegans with 2 samples.

Results

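Genes for small nucleolar RNAs (snoRNAs) that carried a candidate binding region of the transcription factor PAG-3 were described in late embryos of Caenorhabditis elegans. The genes were chosen by the ChIP-seq data themselves. An annotated snoRNA gene was selected on having at least 1 summit of the authors' pooled list of candidate regions within 500 bp of its ends. This held for 158 of the 346 snoRNA genes of the 6 nuclear chromosomes (45.7%, 95% Wilson interval 40.5% to 50.9%), and 188 had none. A stretch of the genome of the same median length, 130 bp, would have a summit that near at 21.2% of positions, and 326 of 612 tRNA genes (53.3%) had one. The 158 genes were served by 154 different strongest summits, because 4 pairs of neighbours shared one. The intervals of shares given here reflect the number of genes only. They treat neighbouring genes as unrelated and leave out the error of the replicates and of the region calls.

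The chromatin came from whole hermaphrodite late embryos of strain OP154, genotype unc-119(ed3) III; wgIs154, collected 4 hours after synchronisation by egg bleaching. The stable transgene encodes PAG-3 with a C-terminal GFP-FLAG tag, and the protein was precipitated with an antibody against GFP. The only group held 2 biological replicates of this 1 strain, and their age was labelled unknown. The regions had been called with a control, whose data are not analysed here. The lists give no read counts, so the sequencing depth is unknown. The deposited candidate lists held 21336 regions for the pooled replicates, 23022 for replicate 1 and 22971 for replicate 2, and they include background by design. A shorter list held the 327 pooled regions that met the authors' limit on the irreproducible discovery rate (IDR), a measure of how well the ranks of regions recur between replicates. Signal is the authors' value for each region, and the sources used here do not say whether the pooled and the replicates' lists share a scale.

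The snoRNAs guide the chemical modification of other RNAs, above all ribosomal RNA, in the nucleolus. Box C/D snoRNAs direct methylation of the ribose and box H/ACA snoRNAs direct the change of uridine to pseudouridine. Many snoRNAs are released from the introns of host genes, while others have a promoter of their own. In tRNA genes RNA polymerase III is recruited through a pair of short sequences inside the gene, the A box and the B box, which bind the factor TFIIIC, and some snoRNA genes of worms carry such a pair just before the mature RNA. PAG-3 is a zinc-finger protein of the GFI family, known for its part in the fate of neurons such as the touch receptor and BDU neurons. The core word of GFI proteins is AATCAC.

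The start regions of 7 snoRNA genes are printed because they show a sequence pattern found at some of the strongest candidates, and genes where it and the candidate do not go together. They are picked examples, so their numbers with and without the pattern are not shares. Other strong candidates without it, such as those of C06A1.9, Y17G7B.25 and D1046.6, are not printed. Each printed start runs 5′ to 3′ along the gene's strand, from 110 bases before the gene to its first 40 bases. The build is ce11 (WBcel235, sequence from RefSeq). Position 111 is the first base of the gene. Capitals mark an A box followed by a B box. The start of C51F7.3 holds 2 matches of the B box, both in capitals, and its positions given for the B box are those of the first. The A box was searched as TGG, 3 bases of any kind, A, 3 more of any kind and G, and the B box as GTTCNANNC, where N is any base. The first 4 genes had strong candidates and carry the pair, at chrV:19643148-19643297 (minus strand), chrV:12303598-12303747 (plus), chrII:11960788-11960937 (plus) and chrV:11314148-11314297 (plus).
Y43F8C.22: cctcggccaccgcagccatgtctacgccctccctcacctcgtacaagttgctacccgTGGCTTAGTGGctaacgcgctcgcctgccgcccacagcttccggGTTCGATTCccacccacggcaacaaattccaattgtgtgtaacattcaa
C51F7.3: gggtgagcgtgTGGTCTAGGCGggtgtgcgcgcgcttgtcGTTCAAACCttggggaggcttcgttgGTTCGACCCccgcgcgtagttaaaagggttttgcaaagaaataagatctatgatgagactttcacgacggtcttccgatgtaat
W03C9.9: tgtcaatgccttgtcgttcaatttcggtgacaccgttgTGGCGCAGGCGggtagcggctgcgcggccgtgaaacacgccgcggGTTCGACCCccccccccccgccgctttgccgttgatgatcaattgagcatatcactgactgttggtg
T03F7.8: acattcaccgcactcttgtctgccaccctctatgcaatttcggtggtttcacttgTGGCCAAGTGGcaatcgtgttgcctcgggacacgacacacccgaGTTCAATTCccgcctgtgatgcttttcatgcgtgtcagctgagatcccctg
The next 2 had strong candidates without a match of both words, at chrV:8500469-8500618 (plus) and chrV:15873887-15874036 (minus). T06C12.16 holds a match of the A box, left in small letters, followed by gttcgatgt. That stretch differs from the B box word at its last base alone.
ZK994.7: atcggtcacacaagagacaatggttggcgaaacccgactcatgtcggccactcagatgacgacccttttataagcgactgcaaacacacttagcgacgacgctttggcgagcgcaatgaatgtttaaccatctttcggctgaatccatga
T06C12.16: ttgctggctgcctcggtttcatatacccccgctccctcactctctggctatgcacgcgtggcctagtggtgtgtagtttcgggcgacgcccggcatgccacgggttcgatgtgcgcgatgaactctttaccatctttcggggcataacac
The last gene carries the pair but had no candidate within 500 bp, at chrX:1891399-1891548 (plus).
Y59E1B.14: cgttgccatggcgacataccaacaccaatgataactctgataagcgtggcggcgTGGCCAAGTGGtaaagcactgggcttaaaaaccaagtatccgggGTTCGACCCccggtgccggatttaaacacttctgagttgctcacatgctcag

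The genes themselves show the letters by which snoRNA classes were read here, since the annotation names no class. A gene was called box C/D by its letters where TGATG or GATGA lay in its first 25 bases and CTGA in its last 20. It was called H/ACA where it ended in ACANNN. These words are in capitals in 2 genes of the first kind and 1 of the second, which had 3 of the strongest candidates.
C51F7.3 (box C/D by letters): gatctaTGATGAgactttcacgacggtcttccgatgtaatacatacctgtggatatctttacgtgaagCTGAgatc
W03C9.9 (box C/D by letters): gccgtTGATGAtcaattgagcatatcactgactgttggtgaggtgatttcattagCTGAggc
Y43F8C.22 (H/ACA by letters): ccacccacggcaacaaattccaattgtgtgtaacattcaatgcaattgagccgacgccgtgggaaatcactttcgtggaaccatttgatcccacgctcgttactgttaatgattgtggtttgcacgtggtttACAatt

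The strongest candidate of any snoRNA gene lay before Y43F8C.22, a gene of 138 bp in an intron of Y43F8C.7 on chromosome V. Its pooled signal was 346, rank 4 of all pooled regions, and the replicates had 174 and 163 (169 ± 7.83, mean ± SD, n = 2). C51F7.3 and C51F7.4, neighbours on chromosome V, shared the candidate of rank 5, with a pooled signal of 336 and 132 and 196 in the replicates (164 ± 44.8, SD, n = 2). C51F7.3 lies in an intron of frm-7, a gene for a FERM domain protein, and C51F7.4 overlaps an annotated exon. ZK265.10, a gene of 62 bp between protein-coding genes, had a pooled signal of 285 at rank 6, with 121 in replicate 1 and 164 in replicate 2. W03C9.9, of the same length and also between genes, had 267 at rank 7, with 128 and 143 in the replicates. Both replicates placed these 5 genes among their 8 strongest regions.

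The next 6 genes in order of signal were more mixed in where their summits lay. ZK994.7, in an intron of the peroxidasin gene pxn-1, had a pooled signal of 254, with 128 in replicate 1 and 130 in replicate 2. T06C12.16 had 224, with 106 and 121, and T03F7.8 had 184, with 80.7 and 105. At these 3 genes the summit lay 1, 57 and 44 bp before the gene. C06A1.9, in an intron of cdc-48.1, which encodes an AAA ATPase that extracts proteins from complexes, had a pooled signal of 189. Its summit lay at -494 bp from the first base of the gene and 151 bp from a transcript start of cdc-48.1, so the candidate sat nearer to the host's start than to the snoRNA gene. Y17G7B.25 (168) had its summit 291 bp before the gene. D1046.6 (160), in an intron of cfim-2, a gene for a factor of mRNA 3′ end formation, had it 41 bp before.

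Signal was lower at the remaining genes. Over all 158 genes the median pooled signal was 41.4, with a lowest value of 24.3 and a highest of 346, and the median over all 21336 pooled candidates was 32.0. The median rank was 4749. The same signal chose the genes, so these values describe them and test nothing. The deposited -log10 q value of the strongest candidate had a median of 0.319 and ran from 0.0182 to 2.61. There was 1 pooled summit within 500 bp at 132 genes, 2 at 23 genes and 3 at 3 genes.

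**Figure D1:**
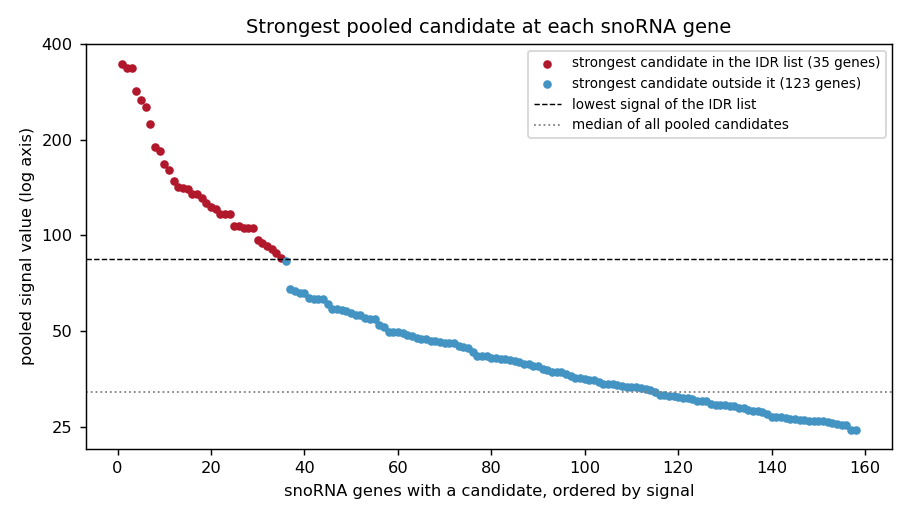
Pooled signal value (log axis) of the strongest candidate within 500 bp at each of the 158 snoRNA genes, ordered by signal, with genes at regions of the IDR list in red and the others in blue. The dashed line is the lowest signal of the IDR list (84.0) and the dotted line the median of all pooled candidates (32.0). The 35 genes in the IDR list run from 346 down to 85.1, and the first gene outside it has 83.3.

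The strongest candidate was in the IDR list for 35 of the 158 genes (22.2%), while 1.53% of all pooled regions were in it. These 35 genes stood at 33 different peaks, which made up 10.1% of the 327 IDR peaks (7.28% to 13.8%). Their median pooled signal was 131 (lowest 85.1, highest 346), and that of the 123 genes at other candidates was 36.03 (lowest 24.3, highest 83.3). These ranges cannot overlap, because the lowest pooled signal in the IDR list was 83.97 and the highest among the 21009 pooled regions outside it was 83.95. M106.6, in an intron of mix-1, a gene for a condensin subunit, was the weakest at an IDR peak, with a rank of 311. M7.15, the strongest outside the list, had 83.3 at rank 341, with 41.8 and 40.8 in the replicates. Its strongest summit lay 155 bp before the gene, and a weaker one lay within it. After M7.15 the next were F37A8.7 with 67.5, C26C6.13 with 66.7, D1007.20 with 66.0 and F11A10.9 with 65.8.

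The other genes at IDR peaks had pooled signals between 85.1 and 149. In order of signal, those above 120 were ZK484.9 (149), C27H6.5 (142, in an intron of unc-41, which acts in synaptic vesicle recycling), C41C4.11 and F32E10.10 (140 each), and C27H5.9 and C27H5.10 (135, at 1 shared peak). They were followed by B0334.12 (131), T19B4.8 (126), F55A11.10 (122) and H09I01.2 (121). C10C6.8, C04G6.12 and T02E1.9 had 117 each, and F30H5.4 had 107. C46C2.8, T27A3.9, F38E11.14 and Y38F2AR.14 lay between 105 and 107. The lowest were F59C6.15 (96.7), Y53F4B.48 (94.7), W01C9.6 (92.5), W08G11.6 (90.6), T08B2.13 (87.9, in an intron of the phenylalanyl-tRNA synthetase gene fars-1) and M106.6 (85.1).

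All 35 genes at IDR peaks had a candidate of their own in both replicates. Of all 158 genes, 109 had one in both (69.0%, 61.4% to 75.7%), 24 in replicate 1 alone (15.2%), 21 in replicate 2 alone (13.3%) and 4 in neither. Since the pooled list was made from the same 2 replicates, this recurrence is not independent of how the genes were chosen. A place in the IDR list itself rests on recurrence between the replicates. The share over all pooled candidates was not counted, so the 69.0% has no background here. Some snoRNA genes without a pooled candidate also had candidates in the replicates' own lists, and these genes were not counted. Among the 327 strongest regions of each replicate, which are 1.42% of the regions of replicate 1 and likewise 1.42% of those of replicate 2, both replicates placed the same 25 snoRNA genes (15.8% of the 158). All 25 were at IDR peaks. The IDR list coincides with the 327 pooled regions of highest signal, made from the same reads, so this agreement is not independent either. Within the 1000 strongest of both replicates there were 33, of which 32 were at IDR peaks and the other was M7.15.

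Among the 35 genes at IDR peaks, the replicates differed most in rank at weaker ones. The median rank of the 35 was 68 in replicate 1 (4 to 1216) and 81 in replicate 2 (3 to 967). In replicate 1, 3 of them ranked beyond 1000, namely M106.6 (1030), F59C6.15 (1037) and W08G11.6 (1216), and none did in replicate 2. Replicate 2 had the higher value at 24 of the 35, with a median ratio of 1.21 (0.660 to 1.74), and no ratio exceeded 2 in either direction. At the 74 other genes with a candidate in both, replicate 2 was higher at 35, and the ratio ran from 0.272 to 2.67. Y75B12B.12 had the lowest of these ratios, with 51.7 in replicate 1 (rank 161) and 14.1 in replicate 2 (rank 20560). K11C4.6, in an intron of the beta-spectrin gene unc-70, had the highest, with 16.3 in replicate 1 and 43.6 in replicate 2.

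**Figure D2:**
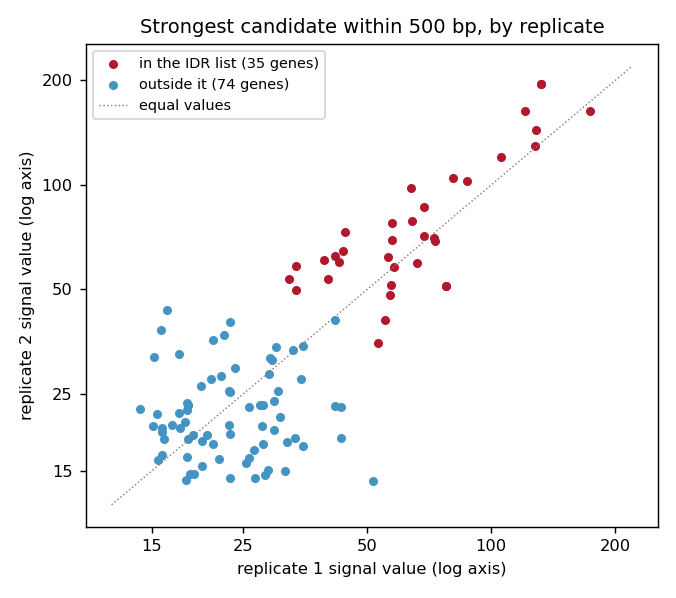
Signal value of the strongest candidate within 500 bp in replicate 2 against replicate 1 (log axes), for the 109 snoRNA genes with a candidate in both, with genes at IDR peaks in red and the others in blue. The dotted line marks equal values. The 35 genes at IDR peaks reach from 32.3 to 174 in replicate 1 and from 35.0 to 196 in replicate 2, and 24 of them lie above the line.

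Genes with a candidate in a single replicate were weak in the pooled list. Those in replicate 1 alone had a median pooled signal of 30.4 (24.3 to 49.7). The strongest was C01B10.48 (49.7), and the others were B0041.9, R08C7.19, Y24D9A.10, F21F12.3, F48A9.6, Y102A11A.17, C53B7.8, Y39G10AR.24, K11H12.12, Y74C9A.6, H06I04.8, T26A8.6, F25H2.15, K09H9.11, R11A5.8, F47G4.9, T25C12.11, T25C12.12, T25D10.11, T23G11.12, F26A10.28, C16A3.11 and Y67A10A.14. Those in replicate 2 alone had a median of 28.3 (25.3 to 44.9). Here Y71G12B.41 (44.9) was the strongest, followed by M163.14, Y37E3.20, ZK930.15, F09G2.14, K02C4.7, C18D1.21, F30A10.16, C02F5.15, T06E4.20, Y46G5A.40, E01A2.11, Y44A6C.3, Y92C3B.4, B0250.19, Y39A1A.30, C07H6.10, C16D2.4, F20D12.10, R166.7 and F54E4.17. The 4 genes with a candidate in neither replicate were K10G6.10 (26.5), C28D4.17 (26.4), T23B12.13 (25.4) and T23G5.7 (24.3), and T23G5.7 had the lowest pooled signal of all 158.

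By the nearest summit, the genes just inside the distance limit were D2096.14 at 481 bp (pooled signal 46.1), R11A5.8 at 488 bp (29.1) and Y92C3B.4 at 489 bp (26.7). Just outside were R151.11 at 507 bp, C04A2.16 at 532 bp and D1054.17 at 537 bp. At C06A1.9 the strongest summit lay near the limit, at -494 bp, while a weaker one lay 188 bp from the gene.

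At IDR peaks the summit lay just before the snoRNA gene. It lay 1 to 150 bp upstream of the first base in 27 of these 35 genes (77.1%, 61.0% to 87.9%) and in 31 of the 123 genes at other candidates (25.2%, 18.4% to 33.5%). The median position was -49 bp at IDR peaks, with quartiles of -65.5 and -34 bp. At other candidates it was -2 bp, with quartiles of -146 and 238.5 bp, so their summits were spread over the whole stretch that the distance limit allows. The summit lay inside the gene for 4 genes at IDR peaks (11.4%) and 21 at other candidates (17.1%), and after the gene for 2 (5.71%) and 40 (32.5%). At C27H5.10 the summit lay after the gene, 414 bp from its first base, because its only candidate is the one at the neighbouring C27H5.9. Pooled regions have a fixed width of 450 bp for 21316 of 21336, so the summit and not the extent of the region carries the position.

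**Figure D3:**
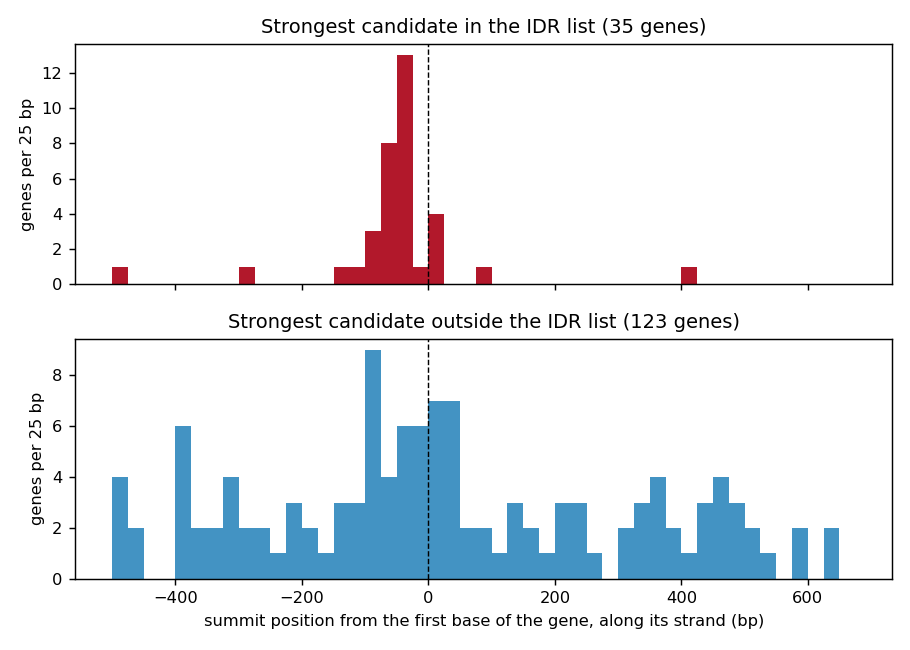
Position of the strongest pooled summit from the first base of the snoRNA gene (bp along the gene's strand, negative before the gene), as genes per 25 bp, for the 35 genes at IDR peaks (above) and the 123 at other candidates (below). The upper panel has its median at -49 bp and the lower one is spread over both sides of the gene start, with its median at -2 bp.

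The genes at IDR peaks were short. Their median length was 75 bp (62 to 190), that of the genes at other candidates was 131 bp (54 to 344), and that of snoRNA genes without a candidate was 133 bp (61 to 328). Under 100 bp were 24 of the 35 (68.6%, 52.0% to 81.4%), 34 of the 123 (27.6%, 20.5% to 36.1%) and 35 of the 188 without a candidate (18.6%, 13.7% to 24.8%). Seen from the length, 24 of the 93 snoRNA genes under 100 bp were at IDR peaks (25.8%), and so were 11 of the 253 longer ones (4.35%). A longer gene offers more bases to a fixed distance, and the part of the distance rule in these lengths was not tested.

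The pair of A box and B box was searched after the data had been seen, in the window from 150 bp before a gene to 50 bp into it, on the gene's strand, with 15 to 70 bp between the boxes. It was found at 27 of the 346 snoRNA genes. Of these 27 genes, 25 had a candidate (92.6%, 76.6% to 97.9%) and 16 were at IDR peaks (59.3%, 40.7% to 75.5%). Of the 319 genes without the pair, 133 had a candidate (41.7%, 36.4% to 47.2%) and 19 were at IDR peaks (5.96%, 3.85% to 9.11%). Counted from the other side, the pair was present at 16 of 35 genes at IDR peaks (45.7%), 9 of 123 at other candidates (7.32%) and 2 of 188 without a candidate (1.06%). Among all pooled candidates, a window of 200 bp at the summit held the pair on either strand at 316 of 21336 (1.48%, 1.33% to 1.65%). Of these candidates 1.53% are in the IDR list, and the IDR peaks away from snoRNA genes were not searched for the pair on their own. The window at gene starts held it at 15 of 19973 protein-coding genes (0.0751%), and 367 of 612 tRNA genes (59.97%) held it inside the gene. A match of letters is a description and does not show that a factor bound there.

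In the printed starts that carry the pair, both boxes lie before position 111, outside the annotated gene. Over the 16 genes at IDR peaks the A box began at a median of -57 bp (-99 to 10) and the B box at -13 bp (-70 to 39), counted from the first base of the gene. The summit fell between the first base of the A box and the last of the B box in 12 of the 16, and its median lay 8 bp after the start of the A box. C51F7.4 is the exception in position. Its pair lies inside the annotated gene and consists of the same bases as the pair before C51F7.3. At Y38F2AR.14 and T08B2.13 the summit lay 7 and 4 bp into the gene, and at W03C9.9 and M106.6 it lay before the A box.

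**Figure D4:**
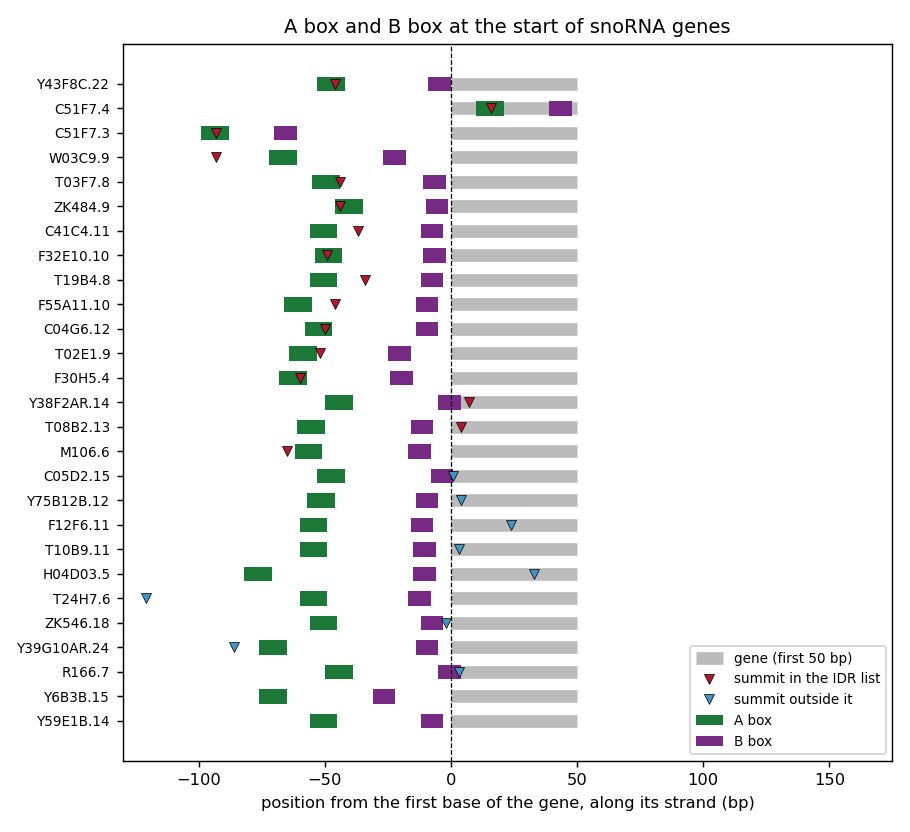
A box (green), B box (purple) and strongest summit (triangle, red in the IDR list and blue outside it) relative to the first base of the gene, in bp along its strand, for the 27 snoRNA genes with the pair, ordered by pooled signal from Y43F8C.22 (346) down to R166.7 (25.3). Grey bars are the first 50 bp of each gene. The lowest 2 genes, Y6B3B.15 and Y59E1B.14, have no candidate and so no triangle.

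Among the genes at IDR peaks the signals of those with and without the pair overlapped. With the pair the median pooled signal was 133 (85.1 to 346, 16 genes), and without it 131 (90.6 to 285, 19 genes). Median lengths were 75 and 74 bp, and the summit lay at a median of -46 bp with the pair and -53 bp without. Genes at other candidates with the pair had a median signal of 45.9 (25.3 to 63.6, 9 genes), led by C05D2.15 and Y75B12B.12, and those without it 35.4 (24.3 to 83.3, 114 genes). The 19 genes without a match include ZK265.10, ZK994.7, T06C12.16, C06A1.9, Y17G7B.25 and D1046.6. Of these, T06C12.16 misses the B box word at its last base alone. Near matches were not searched for among the 19, so T06C12.16 need not be the only one.

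Searched at the summit itself, the B box lay within 50 bp on either strand at 31 of the 158 genes (19.6%, 14.2% to 26.5%). It was there at 16 of the 35 genes at IDR peaks (45.7%), 15 of the 123 others (12.2%) and 909 of all 21336 pooled candidates (4.26%). Of the 16, 14 had the whole pair at the gene start, and T27A3.9 and B0334.12 did not. Bases around the summit were richer in G and C at IDR peaks, with a median of 54.5%, than at the genes' other candidates (44.6%) and at all pooled candidates (42.6%). The part of base composition in the word counts was not tested. Of all pooled candidates 1.53% are in the IDR list. The IDR peaks away from snoRNA genes were not examined on their own for the B box or for G and C. Whether these values are particular to snoRNA genes among strong regions was thus not tested. The GFI core word lay within 50 bp of the summit at 10 of the 158 genes (6.33%, 3.47% to 11.3%), among them C06A1.9 and Y38F2AR.14 at IDR peaks, and at 918 of all pooled candidates (4.30%, 4.04% to 4.58%).

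Genes with and without a candidate lay in host introns in similar shares, with intervals that overlap. The snoRNA gene lay in an intron of a protein-coding gene on the same strand at 65 of 158 genes with a candidate (41.1%, 33.8% to 48.9%) and 85 of 188 without (45.2%, 38.3% to 52.4%). It lay between protein-coding genes at 60 (38.0%) and 64 (34.0%) and in an intron on the other strand at 16 (10.1%) and 12 (6.38%). Outside such introns it overlapped a coding gene's exon at 17 (10.8%) and 27 (14.4%). The intervals of each of these classes overlap as well. Some genes placed in an intron also overlap an exon, and 36.7% of the 158 lay in a same-strand intron with no exon overlapped. Among the 35 genes at IDR peaks, 13 lay in an intron on the same strand (37.1%), 12 between genes (34.3%), 6 in an intron on the other strand (17.1%) and 4 over an exon (11.4%). Hosts on the same strand included catp-8, a P-type ATPase gene, for C10C6.8 and cng-3, a cyclic nucleotide-gated channel gene, for F38E11.14. Hosts on the other strand included the MAP kinase gene mpk-2 for C04G6.12.

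Genes for ribosomal proteins, a common kind of snoRNA host, were counted by same-strand host symbols that begin with rpl or rps. Genes with other symbols were left out. Such hosts held 9 of the 158 genes (5.70%) and 10 of the 188 without a candidate (5.32%). None of the 9 was at an IDR peak. Their pooled signals ran from 25.8 for C16A3.11 in rps-13 to 66.0 for D1007.20 in rpl-24.1. D1007.20 had its summit at -376 bp, counted from the first base of the gene, and 242 bp from a transcript start of its host.

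A start of a protein-coding transcript lay within 500 bp of the summit at 53 of the 158 genes (33.5%, 26.7% to 41.2%), 10 of them at IDR peaks. For these genes the candidate cannot be told apart from one at the neighbouring coding gene. At IDR peaks they were F55A11.10 (78 bp from a start of F55A11.6), C06A1.9, D1046.6, C27H5.9, C27H5.10, F38E11.14, Y53F4B.48, C41C4.11, T02E1.9 and Y17G7B.25. A tRNA gene lay that near to the summit at 1 gene, M163.14 (pooled signal 41.0), where the summit is inside it, and an snRNA gene at none. Words of 36 bases within 100 bp of the summit occurred once in the genome without exception at all 35 genes at IDR peaks. At 14 of the 123 others some were repeated, and the lowest share of single words was 57.8%, at B0250.19.

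By their letters, 25 of the 158 genes were box C/D (15.8%, 10.95% to 22.3%), as were 8 of the 188 without a candidate (4.26%, 2.17% to 8.17%). H/ACA by letters were 30 (19.0%, 13.6% to 25.8%) and 28 (14.9%, 10.5% to 20.7%), and 103 (65.2%) and 152 (80.9%) had neither set of words. The letters thus left 255 of all 346 snoRNA genes (73.7%) without a class. How many of these belong to either class is not known, so the shares hold for the letters only. Of the 33 genes that were box C/D by letters, 25 had a candidate (75.8%) and 8 were at IDR peaks (24.2%). Of the 58 that were H/ACA by letters, 30 had a candidate (51.7%) and 9 were at IDR peaks (15.5%), and of the 255 with neither, 103 (40.4%) and 18 (7.06%). The box C/D genes were also the shorter ones, with a median of 78 bp against 133 bp for H/ACA. The parts of length and class were not tested separately. The 8 at IDR peaks were C51F7.3, W03C9.9, T06C12.16, T03F7.8, C41C4.11, F55A11.10, F30H5.4 and M106.6. Of them 7, all but T06C12.16, carry the pair of boxes at the start, and T06C12.16 misses the B box word at its last base alone. Of the 9 H/ACA genes at IDR peaks, Y43F8C.22 and T08B2.13 carry it. Of the 18 with neither, C51F7.4, ZK484.9, F32E10.10, T19B4.8, C04G6.12, T02E1.9 and Y38F2AR.14 do. Over all 27 snoRNA genes with the pair, 10 were box C/D by letters, 8 were H/ACA and 9 had neither.

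Genes with a candidate were found on all 6 chromosomes, and genes at IDR peaks on 5 of them. On chromosome I, 37 of 74 snoRNA genes had a candidate and 7 were at IDR peaks. Chromosome II had 32 of 71 with 11 at IDR peaks, chromosome IV 28 of 59 with 7, and chromosome V 22 of 55 with 9. On chromosome III 24 of 54 had a candidate, but F30H5.4 was the only one at an IDR peak. On the X chromosome 15 of 33 had a candidate and none was at an IDR peak. The strongest there, C02C6.13 in an intron of lron-3, had a pooled signal of 49.5 at rank 2520. The chromosomes were not tested against each other. How the IDR peaks as a whole are spread over the chromosomes was not counted, so the counts at IDR peaks have no background here.

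**Figure D5:**
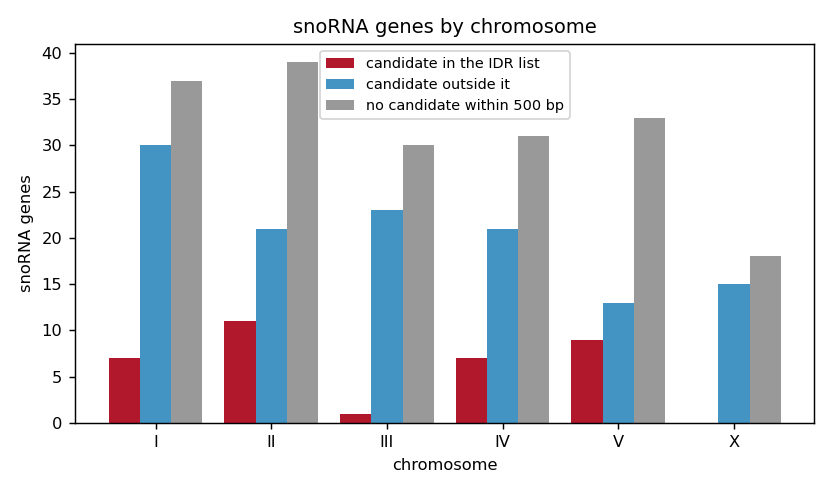
Number of snoRNA genes on each chromosome whose strongest candidate was in the IDR list (red), whose strongest candidate was outside it (blue), and which had no candidate within 500 bp (grey). Red bars range from 11 on chromosome II to 1 on chromosome III and none on X.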

How the data were processed

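PAG-3::GFP ChIP-seq of whole late embryos was deposited as region lists in narrowPeak layout, for each of 2 biological replicates, for the pooled replicates and for pooled regions past an IDR threshold. Signal values and -log10 q values are the authors', per the file layout and the deposited notes. The regions were called against a control, per the deposited notes. Aligner, peak caller, IDR threshold and read depth are not given in the sources used here. Lists in ce11 were used, and those in ce10 were not analysed. Genes came from Ensembl release 115 (WBcel235, the same build). All 346 snoRNA genes are also snoRNA genes in RefSeq.

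The summit is the region start plus the deposited offset. For each gene the strongest summit within 500 bp was taken, separately in each list. Genes named are the 25 of largest pooled signal, all at IDR peaks, all with a candidate in 1 replicate or neither, those next to the distance limit, and hosts. Other genes outside the IDR list, among them M7.15 and those singled out for a rank, a replicate ratio or the box pair, were named after their values were seen. The genes and lists were chosen with earlier results of these data known, and the A and B box pair after the data were seen. With 1 group no test was made. The word search was tested on simulated data. Python 3.11.15, pandas 2.3.3, numpy 2.4.6, scipy 1.17.1 and matplotlib 3.10.9 were used.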

Additional observations from a re-analysis of the deposited data

How the results depend on the processing

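Of 73 values computed under other settings, 50 stayed within 1.5 times the count or within the interval of the value as reported, and 23 moved. With the summit required inside the gene (0 bp), 27 genes had a candidate, 4 were at IDR peaks, 9 had one in both replicates and 1 was among the strongest of both, with a median position of 28 bp after the first base in place of -38.5 bp, since a summit inside the gene cannot lie before it. Within 100 bp there were 86 genes, 60 of them with a candidate in both replicates, and their median signal was 50.5. With 1 replicate's own list in place of the pooled one, the median signal was 20.1 to 23.2, on that list's scale. Hosts on either strand gave 51.3% in introns. The B box share was 8.86% for the stricter word GTTCGANNC and 5.06% inside the gene itself. Among alternatives added after the data were seen, 105 genes had no protein-coding start within 500 bp of the summit. With the stricter B box the pair was found at 16 genes, 15 with a candidate and 9 at IDR peaks. Restricting the chromosome counts to IDR peaks moved each of them. No paired analysis was possible because the series holds 1 group. The depth is unknown, so what it limits cannot be given.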
